A study of Mus musculus with 96 samples.

Results

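Fibroblasts make many of the secreted signals that call in and feed other cells, and 10 genes for such signals were followed here in single mouse embryonic fibroblasts (MEFs). They are the chemokine genes Cxcl1, Cxcl5, Cxcl12, Ccl2 and Ccl7, the blood cell cytokine genes Csf1, Il6 and Kitl, and the growth factor genes Vegfa and Ntf3. They were chosen by symbol, as 10 of the 21711 gene rows in the deposited table, and each matched 1 row. The plate held 44 wells labelled as MEFs, grown in DMEM with serum and 2-mercaptoethanol, 48 wells labelled as R1 embryonic stem cells (ES cells), a pluripotent line, and 4 negative control wells. Transcripts were read by single-cell tagged reverse transcription (STRT), which counts reads at the 5′ ends of RNAs in each well. The labels name no strain, genotype, embryonic age or passage for the MEFs, and no treatment of either cell type. They give R1 as the source line of the MEF wells too, which is at odds with the cell type label. Each cell type was treated as 1 culture on its own side of the plate, so cell type and plate side cannot be told apart, and no test between cell types was possible.

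Wells with at least 10000 gene reads were kept, which were 44 of 44 MEF wells and 45 of 48 ES cell wells. Gene reads per well ran from 63938 through a median of 851801 to 1883709 in MEFs, against 13576, 161206 and 703423 in ES cells and 236, 3814.5 and 4662 in the negative control wells. Levels are given as CPM, the reads of a gene scaled to a common total of gene reads and pooled over the cells of a type, and ratios are MEF over ES cell. Intervals are exact 95% intervals for counting error only, Poisson for reads and Clopper-Pearson for shares of cells. PCR copies of 1 molecule were counted as separate reads, because no molecular identifiers are mentioned, so these intervals are too narrow for molecules. A gene is called MEF-high or ES-high where its pooled CPM was at least 2-fold that of the other cell type. The spread of a ratio is its SD over the 8 plate rows, each of which held both cell types, with 3 reads in place of 0 where only 1 type had reads in a row.

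The MEF label matched the markers: 8 of 8 fibroblast markers, such as Col1a1, Thy1 and Vim, were MEF-high, and 6 of 6 ES cell markers, such as Pou5f1, were ES-high. Markers of blood and vessel cells had few reads. Of 9 macrophage markers in the table, 6 had no read in MEFs, among them Emr1, Cd14 and Cd68, and the summed level of the list had a median of 0 and a maximum of 75.3 CPM over MEFs. The macrophage genes with MEF reads were Lyz2, with 74 reads in 2 MEFs, Csf1r, with 23 reads in 1 MEF, and Ptprc, with 1 read. All 4 lymphocyte markers, the mast cell genes Cpa3, Mcpt4 and Tpsb2 and the endothelial genes Pecam1, Cdh5, Tie1 and Emcn were at 0 reads in MEFs and in ES cells. The remaining markers of these lists had reads: Kdr 200 in 4 MEFs, Tek 76 in 3 MEFs, and Kit 11 in 2 MEFs and 268 in 7 ES cells. Of the 4 measured epithelial markers, 3 were ES-high, among them Epcam and Cdh1, and Krt18 was read in 7 MEFs and no ES cell.

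Chemokines are small secreted proteins that draw migrating cells along a gradient through G protein-coupled receptors. In fibroblasts, genes such as Cxcl1, Ccl2 and Il6 are known as inducible targets of NF-kappaB, a transcription factor activated by infection, injury and inflammatory cytokines, whereas Cxcl12 is known as a steadily made chemokine of connective tissue and bone marrow stroma. Csf1, Kitl and Vegfa are survival and growth signals for macrophages, for blood and pigment cell precursors, and for blood vessels.

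The promoter sequence is shown for 3 genes that hold a match to the NF-kappaB motif (the kappaB motif) and for Cxcl12, which was read in every MEF and holds none. Each is the 250 bases before the RefSeq transcription start in GRCm38.p6, written 5′ to 3′ on the strand of the gene, and capitals mark matches to the kappaB motif. The windows are chr5:90890995-90891244 on the plus strand for Cxcl1, chr5:30012864-30013113 on the plus strand for Il6, chr3:107760470-107760719 on the minus strand for Csf1 and chr6:117168285-117168534 on the plus strand for Cxcl12.
Cxcl1: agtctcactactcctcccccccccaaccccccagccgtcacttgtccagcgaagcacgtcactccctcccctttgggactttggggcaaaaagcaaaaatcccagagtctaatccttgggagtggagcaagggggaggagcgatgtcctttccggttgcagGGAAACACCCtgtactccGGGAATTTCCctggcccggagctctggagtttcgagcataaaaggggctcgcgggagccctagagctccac
Il6: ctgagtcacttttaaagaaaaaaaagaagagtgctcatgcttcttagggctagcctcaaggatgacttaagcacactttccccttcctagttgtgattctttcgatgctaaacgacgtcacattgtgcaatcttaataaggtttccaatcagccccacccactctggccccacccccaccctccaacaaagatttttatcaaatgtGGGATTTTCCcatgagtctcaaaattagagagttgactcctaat
Csf1: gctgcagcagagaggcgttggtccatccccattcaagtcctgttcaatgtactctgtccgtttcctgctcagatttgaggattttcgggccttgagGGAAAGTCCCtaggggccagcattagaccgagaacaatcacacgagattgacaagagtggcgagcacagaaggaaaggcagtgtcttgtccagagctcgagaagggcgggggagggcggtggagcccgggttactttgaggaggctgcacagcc
Cxcl12: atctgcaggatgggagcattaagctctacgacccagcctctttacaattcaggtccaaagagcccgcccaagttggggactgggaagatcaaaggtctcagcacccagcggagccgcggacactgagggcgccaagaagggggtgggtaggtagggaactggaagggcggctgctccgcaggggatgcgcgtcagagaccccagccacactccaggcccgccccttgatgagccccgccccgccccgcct
The motif was searched on both strands as GGG, 2 free bases and TTTCC, and 1.41% of 32851 RefSeq promoter windows of the same length held a match. The Cxcl1 window held 2 matches, GGAAACACCC on the opposite strand from base −89 and GGGAATTTCC from base −71, counted from the transcription start. The Il6 window held GGGATTTTCC from base −44 and the Csf1 window GGAAAGTCCC on the opposite strand from base −154. RefSeq windows were found for 7 of the 10 genes, those of Cxcl1, Cxcl12, Csf1, Il6, Kitl, Vegfa and Ntf3. Outside these 3 genes no kappaB match lay in the windows. The TATA box TATAAA, held by 12.4% of windows, matched only in Kitl, from base −25. This base is counted from the RefSeq start after the Kitl window, chr10:100015571-100015820. That window reaches past the start of the gene in the GRCm38 annotation, 100015615, so the match lies inside the annotated gene. The AP-1 motif TGANTCA, held by 6.75% of windows, matched only in Il6, from base −249. The hypoxia response core ACGTG, held by 16.6% of windows, matched in Cxcl1, in Ntf3, where the same letters match on both strands, and in the second of the Vegfa windows. That Vegfa window, chr17:46025164-46025413, lies inside the gene, whose span is 46016993 to 46032377 on the minus strand. The Vegfa window that ends at the outer start of the gene, chr17:46032378-46032627, held no match. A match is a run of letters and not a measured binding site.

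Of the 10 genes, 9 had reads in MEFs and Cxcl5 had none in any well. Cxcl12, Csf1, Vegfa and Ntf3 were read in at least 22 of the 44 MEFs, Ccl7, Ccl2 and Kitl in 11 to 17, and Il6 and Cxcl1 in 4 and 2. All 9 measured genes were MEF-high, as were 58.5% of the 12818 genes with at least 20 reads over both cell types. Against the median gene, which itself lay at a log2 ratio of 1.54, 8 of the 9 stood at least 2-fold above, as did 32.5% of all genes, and Vegfa at a relative log2 ratio of 0.94 was the exception. Vegfa rested on ES cell 19: with the highest ES cell of each gene left out, a choice made after seeing the data, all 9 stood at least 2-fold above the median gene. This second limit was passed by 5 of the 9 with 10 CPM added to both types, and by 5 over plate rows A to D alone. The median log2 ratio of the 9 genes was 3.83, with Cxcl1 and Il6 at lower bounds, and that of all genes was 1.48. These counts are descriptions: the genes were picked as fibroblast products, and Cxcl1, Il6, Ccl2 and Kitl passed the read minimum through MEF reads alone.

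**Figure D1:**
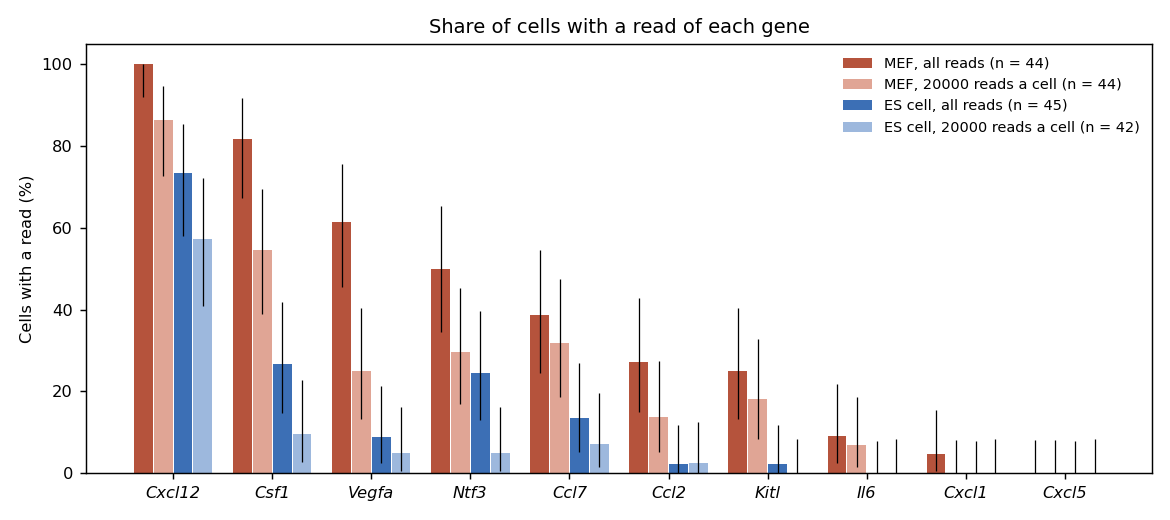
Share of cells with at least 1 read of each gene, in percent, with exact binomial intervals. The bars of each gene are, from left to right, MEFs at all reads, MEFs at 20000 reads per cell, ES cells at all reads and ES cells at 20000 reads per cell. Both MEF bars are for 44 cells, and the ES cell bars are for 45 cells at all reads and 42 at 20000 reads per cell. At all reads, Cxcl12 was read in 100% of MEFs and 73.3% of ES cells, Il6 in 9.09% of MEFs and no ES cell, and Cxcl5 in no cell.

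**Figure D2:**
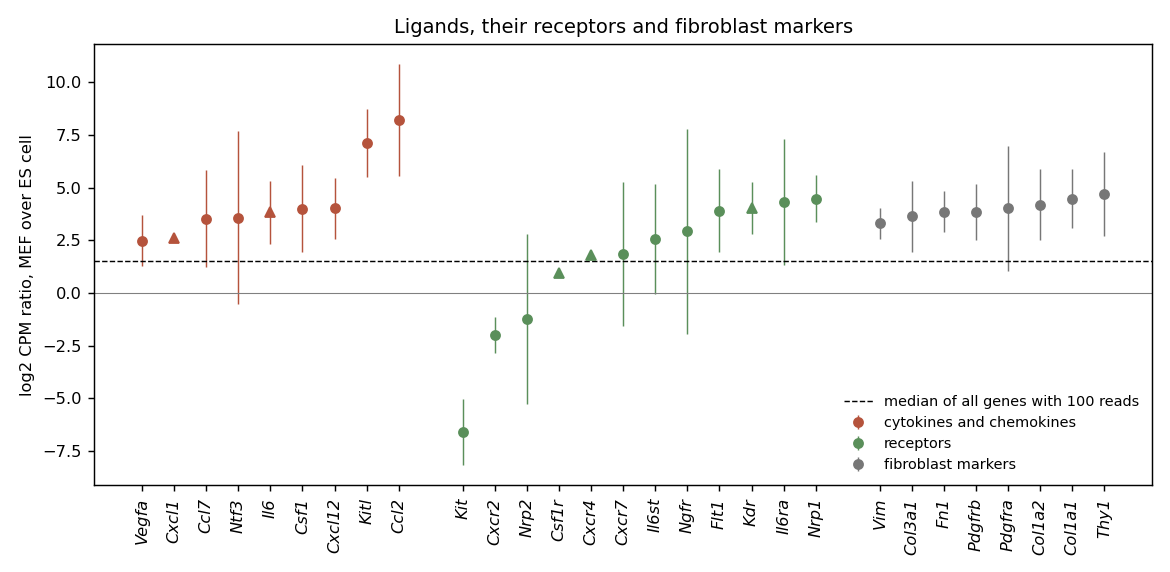
Log2 ratio of pooled CPM, MEF over ES cell, for the measured genes, receptors and fibroblast markers, with the SD over plate rows as bars, triangles for lower bounds and a dashed line at the median gene. All 9 measured ligand genes lie above 0, from 2.48 for Vegfa to 8.21 for Ccl2, while the receptor gene Kit lies at −6.62.

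Cxcl12, whose product binds Cxcr4 and the scavenging receptor Cxcr7 and guides and retains blood stem cells, germ cells and neurons, was read in all 44 MEFs (chromosome 6, 117168535 to 117181368, plus strand, GRCm38). Its level per MEF was 4.63 CPM at the lowest, 641 CPM at the median and 5260 CPM at the highest, against 0, 60.2 and 1925 CPM in ES cells. The ranges of the cell types overlapped, and MEFs themselves spanned 1135-fold. The spread was graded: 12 MEFs were below 50 CPM, 9 between 50 and 500 CPM, 11 between 500 and 2000 CPM, and 12 above 2000 CPM. Pooled levels were 1391 CPM in MEFs (interval 1379 to 1403) and 85.5 CPM in ES cells (79.5 to 91.9), a 16.3-fold difference (15.1 to 17.5). The log2 ratio of 4.02 exceeded the SD over plate rows of 1.44, and MEFs were higher in 8 of 8 rows. Cxcl12 was also the only one of the 10 genes with reads in the negative control wells, which held 4, 11, 1 and 0 reads among 12527 gene reads. Of the 44 MEFs, 37 held more reads than the highest of these wells, as did 23 of the 45 ES cells, so low Cxcl12 counts cannot be told apart from the carry-over seen in empty wells. At an equal 20000 reads per cell, Cxcl12 was read in 38 of 44 MEFs and 24 of the 42 ES cells deep enough for this, and its log2 ratio was 2.89.

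Cxcl12 gave 75.02% of the 65183 MEF reads of the 10 genes. Per kilobase of the transcript lengths in the deposited table, MEF levels ran from 194 CPM for Cxcl12 through 102 CPM for Ntf3, 78.3 CPM for Ccl7, 42.03 CPM for Ccl2 and 36.7 CPM for Csf1 to 2.19 CPM for Cxcl1, although reads at the 5′ end do not grow with length as fragments of whole transcripts do.

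**Figure D3:**
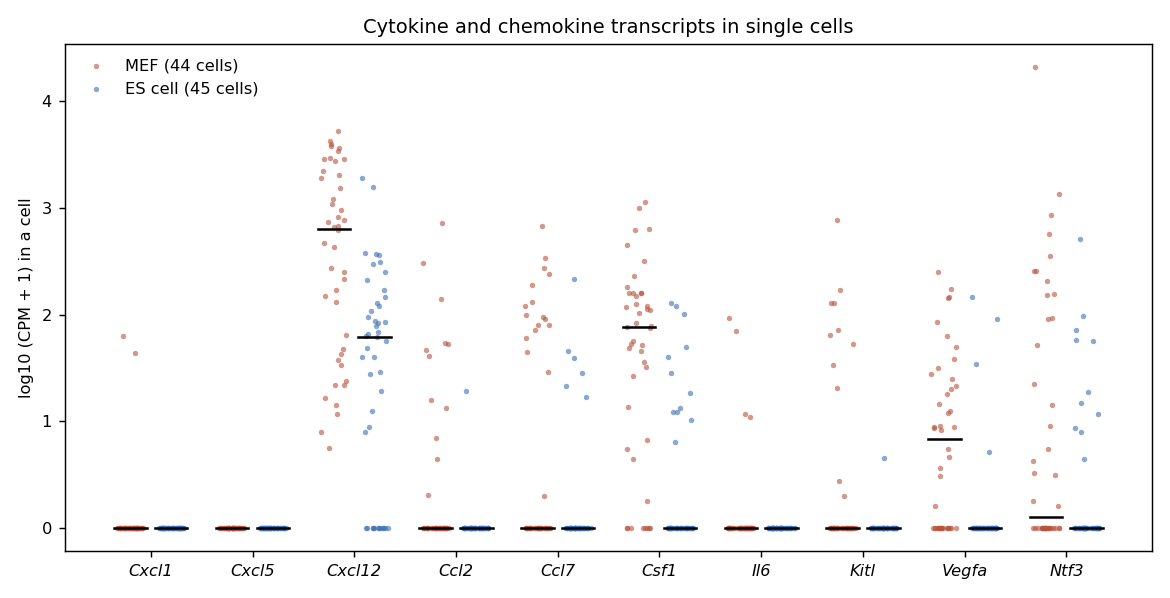
Log10(CPM + 1) in each cell (points) for each gene, with MEFs left, ES cells right and the median as a black line. Cxcl12 spans 4.63 to 5260 CPM in MEFs, whereas most MEFs lie at 0 for Ccl2, Ccl7, Kitl, Il6 and Cxcl1.

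Ccl2 and Ccl7 encode attractants of monocytes that act through Ccr2 and related receptors. The genes are neighbours on chromosome 11 (82035577 to 82037452 and 82045712 to 82047525, both plus strand, GRCm38), 8259 bases apart with no gene between them. Ccl2 was read in 12 of 44 MEFs (27.3%, interval 14.96 to 42.8) and 1 of 45 ES cells (2.22%). Its level per MEF was 0 at the lowest and at the median and 716 CPM at the highest, against a maximum of 18.2 CPM in ES cells, where a single read was found. MEF 81 held 779 of the 1191 MEF reads, which is 65.4%. Pooled levels were 33.9 CPM in MEFs and 0.115 CPM in ES cells, and without MEF 81 the MEF level was 12.1 CPM. The ratio of 295-fold has a counting interval of 52.9 to 11679 because of that lone ES cell read. At 20000 reads per cell its log2 ratio was 4.84 in place of 8.21, and in plate rows E to H it was 4.43. Of the 6 plate rows with a read, 5 held MEF reads only and row D held the lone ES cell read beside 128 MEF reads.

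Ccl7 was read in 17 of 44 MEFs (38.6%, interval 24.4 to 54.5) and 6 of 45 ES cells (13.3%). Over MEFs the level had a median of 0 and a maximum of 676 CPM, against 0 and 216 CPM in ES cells. Pooled levels were 62.4 CPM in MEFs and 5.39 CPM in ES cells, an 11.6-fold difference (8.68 to 15.8) whose log2 ratio of 3.53 exceeded the row SD of 2.28. MEFs were higher in 7 of 8 plate rows, the exception being row B. MEF 81 was the highest MEF for this gene as well, with 736 of 2194 reads. Of the 44 MEFs, 6 held reads of both neighbours, 6 of Ccl2 alone, 11 of Ccl7 alone and 21 of neither. Ccl7 was thus read in 6 of the 12 MEFs with Ccl2, beside 38.6% of all MEFs. The Spearman correlation of the 2 genes over the 44 MEFs was 0.13.

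Cxcl1 and Cxcl5 encode attractants of neutrophils that act through Cxcr2, and lie 129619 bases apart on chromosome 5 (Cxcl1 at 90891245 to 90893121, Cxcl5 at 90759298 to 90761625, both plus strand, GRCm38). Cxcl1 was read in 2 of 44 MEFs (4.55%, interval 0.555 to 15.5), with 38 reads in MEF 88 and 35 reads in MEF 91, and in none of 45 ES cells. The other 42 MEFs were at 0. The pooled MEF level was 2.08 CPM (1.63 to 2.61), at least 6.04-fold higher than the ES cell level, for which 0 reads were set to a floor of 3 reads over the group. Without MEF 88 the MEF level was 1.01 CPM and the bound 2.95-fold. At 20000 reads per cell Cxcl1 was not detected in any cell. Cxcl5 had 0 reads, which allows a share of up to 6.82% of MEFs and 6.67% of ES cells with a read at the floor of 3 cells, while the exact intervals reach 8.04% and 7.87%. Ppbp, Pf4, Cxcl3 and Cxcl15, which lie between the 2 genes, also had no reads.

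Csf1, the growth factor that macrophages need for survival (chromosome 3, 107741048 to 107760469, minus strand), was read in 36 of 44 MEFs (81.8%, interval 67.3 to 91.8) and 12 of 45 ES cells (26.7%, 14.6 to 41.9). Its level per MEF was 0 at the lowest, 74.9 CPM at the median and 1142 CPM at the highest, against 0, 0 and 127 CPM in ES cells. Pooled levels were 162 CPM in MEFs and 10.1 CPM in ES cells, a 16.1-fold difference (13.02 to 20.1). The log2 ratio of 4.01 was larger than the row SD of 2.06, with MEFs higher in 8 of 8 rows. At 20000 reads per cell, 24 of 44 MEFs and 4 of 42 ES cells held a read.

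Il6 encodes interleukin 6, a cytokine of fever and the acute phase response that signals through Il6ra and Il6st (chromosome 5, 30013114 to 30019975, plus strand). It was read in 4 of 44 MEFs (9.09%, interval 2.53 to 21.7), with 78 reads in MEF 54, 76 in MEF 81, 14 in MEF 69 and 4 in MEF 86, and in none of 45 ES cells. The remaining 40 MEFs were at 0. The pooled MEF level was 4.89 CPM (4.19 to 5.68), at least 14.2-fold higher than in ES cells against the floor of 3 reads. Without MEF 54 the level was 2.74 CPM and the bound 7.96-fold, and at 20000 reads per cell 3 MEFs held a read and the log2 bound was 0.93 in place of 3.83. All 4 of these MEFs also held Csf1 reads and 3 of them Ccl7 reads, although Csf1 was read in most MEFs.

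Kitl encodes stem cell factor, the ligand of Kit on blood stem cells, mast cells, germ cells and melanocytes (chromosome 10, 100015615 to 100100416, plus strand). It was read in 11 of 44 MEFs (25%, interval 13.2 to 40.3) and 1 of 45 ES cells. MEFs had a median level of 0 and a maximum of 764 CPM, in MEF 66, where 117 of 153058 gene reads were Kitl. The highest ES cell was at 3.56 CPM, from a single read. Pooled levels were 16.2 CPM in MEFs and 0.115 CPM in ES cells, a ratio of 141-fold with a counting interval of 25.2 to 5585. MEF 61 held 242 of the 569 MEF reads, and without it the MEF level was 9.83 CPM. In plate rows A to D alone the log2 ratio was 4.07, and at 20000 reads per cell 3.52, in place of 7.14.

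Vegfa, the main signal for blood vessel growth (chromosome 17, 46016993 to 46032377, minus strand), was read in 27 of 44 MEFs (61.4%, interval 45.5 to 75.6) and 4 of 45 ES cells (8.89%, 2.48 to 21.2). Its level per MEF was 0 at the lowest, 5.92 CPM at the median and 253 CPM at the highest, against 0, 0 and 144 CPM in ES cells. ES cell 19 alone held 27 of the 37 ES cell reads, and without it the ES cell level was 1.17 CPM and the log2 ratio 4.34. Pooled levels were 23.7 CPM in MEFs and 4.24 CPM in ES cells, a 5.59-fold difference (4.02 to 7.998). Over all cells its log2 ratio of 2.48 exceeded the row SD of 1.20, and MEFs were higher in 8 of 8 rows. In plate rows E to H alone the log2 ratio was 4.404, at 20000 reads per cell 3.58 and under median-of-ratios scaling 1.20.

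Ntf3 encodes neurotrophin-3, a survival factor for sensory and sympathetic neurons that acts through Ntrk3 (chromosome 6, 126101412 to 126166772, minus strand). It was read in 22 of 44 MEFs (50%, interval 34.6 to 65.4) and 11 of 45 ES cells (24.4%, 12.9 to 39.5). Among MEFs the median was 0.30 CPM and the maximum 21020 CPM, against 0 and 509 CPM in ES cells. The maximum came from MEF 53, the shallowest MEF, where 1344 of 63938 gene reads were Ntf3, and MEF 64 held a similar 1366 reads. Pooled levels were 158 CPM in MEFs and 13.2 CPM in ES cells, an 11.97-fold difference (9.95 to 14.5). Its log2 ratio of 3.58 was smaller than the row SD of 4.13, and MEFs were higher in 5 of 8 rows, with ES cells higher in rows B, C and F. At 20000 reads per cell the log2 ratio was 5.16. There each MEF counts alike, so MEF 53 weighs more than in the pooled level. This value was not recomputed without MEF 53.

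The reads of these genes in ES cells were concentrated in few wells. Of the 289 ES cell reads of the 9 genes other than Cxcl12, 162 (56.1%) came from ES cells 10, 22 and 4, and 26 ES cells held none. Summed fibroblast marker levels in these wells were 3730, 6002 and 24303 CPM, against an ES cell median of 1104 CPM and a MEF range of 5900 to 65767 CPM with a median of 21944 CPM. ES cell 4 had the highest fibroblast marker level of all ES cells and also their highest Cxcl12 level. The 2 values did not go together in every ES cell. ES cells 7, 30 and 8 had fibroblast marker levels of 18952, 8743 and 7587 CPM and no read of the 9 genes, at 23428, 18186 and 13576 gene reads. ES cells 19 and 25 held 30 and 12 such reads at fibroblast marker levels of 882 and 813 CPM, below the median. ES cells 10, 22 and 4 were also left out together, a choice made after seeing the data. The log2 ratio was then 4.48 for Cxcl12, 5.30 for Csf1, 5.18 for Ntf3 and 4.27 for Ccl7, and Ccl2 had no ES cell read. Over all kept ES cells, the 8 fibroblast markers themselves had log2 ratios of 3.30 to 4.71. That range holds the ratios of Cxcl12, Csf1, Ntf3 and Ccl7 over all kept ES cells. Without ES cells 10, 22 and 4, Csf1 and Ntf3 lay above it, but the markers were not recomputed without these wells. The part of fibroblast RNA in ES cell wells in these values was not tested.

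MEFs differed in how many of these genes they held reads of. They held reads of a median of 4 of the 10 genes, with a range of 1 to 7, against a median of 1 and a range of 0 to 5 in ES cells. At 20000 reads per cell the medians were 3 in MEFs and 1 in ES cells. Single MEFs were spread over all these numbers, with 1 cell holding 1 gene, 6 cells 2, 11 cells 3, 9 cells 4, 11 cells 5, 4 cells 6 and 2 cells 7. The number of genes held correlated with gene reads per MEF at a Spearman correlation of 0.40, and the part of depth was not tested beyond the equal-depth count. Of the 4 genes known as inducible inflammatory signals, Cxcl1, Ccl2, Ccl7 and Il6, 25 MEFs held at least 1 and 19 none. Among the 25 MEFs, 16 held 1 of the 4 genes, 8 held 2, MEF 81 held 3, and no MEF held all 4.

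The highest levels of the 9 measured genes lay in 8 different MEFs, whether ranked by reads or by CPM. MEF 81 was the only cell to lead for more than 1 gene, Ccl2 and Ccl7, and it held 2434 reads of Cxcl12, 779 of Ccl2, 736 of Ccl7, 81 of Csf1, 76 of Il6 and 8 of Vegfa. Concentration in 1 cell was common in these libraries. Among the 10529 genes with at least 100 MEF reads, the median gene was read in 22 MEFs and had 19.1% of its reads in its highest cell. The corresponding share was 65.4% for Ccl2, 45.3% for Il6, 42.5% for Kitl, 33.5% for Ccl7, 26.5% for Csf1, 24.6% for Ntf3, 21.3% for Vegfa and 14.5% for Cxcl12.

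**Figure D4:**
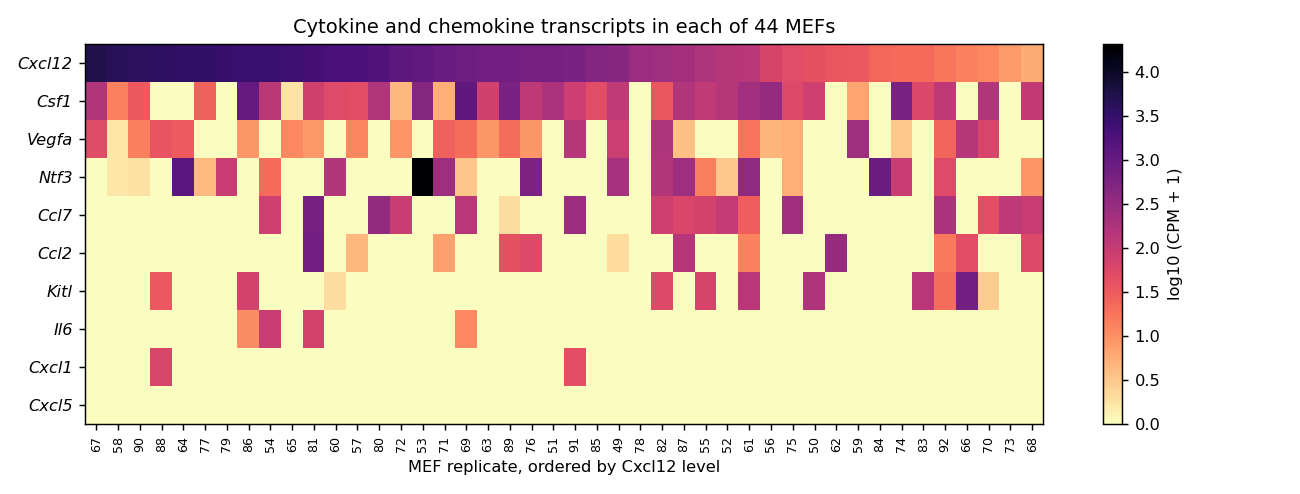
Log10(CPM + 1) of the 10 genes (down) in each of the 44 MEFs (across, ordered by Cxcl12 level). Cxcl12 runs as an unbroken band, while reads of Ccl2, Ccl7, Kitl and Il6 fall in scattered cells along that order, and Cxcl5 is empty.

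Pairs of the genes varied largely apart. Among the 7 genes read in at least 11 MEFs, the 21 Spearman correlations over the 44 MEFs ran from −0.27 for Cxcl12 with Kitl to 0.27 for Ccl7 with Csf1. No pair reached 0.5 in size, nor did any at 20000 reads per cell, where the range was −0.26 to 0.26. All cells share a plate and differ in depth, and weak correlations among sparse counts are not read further here.

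**Figure D5:**
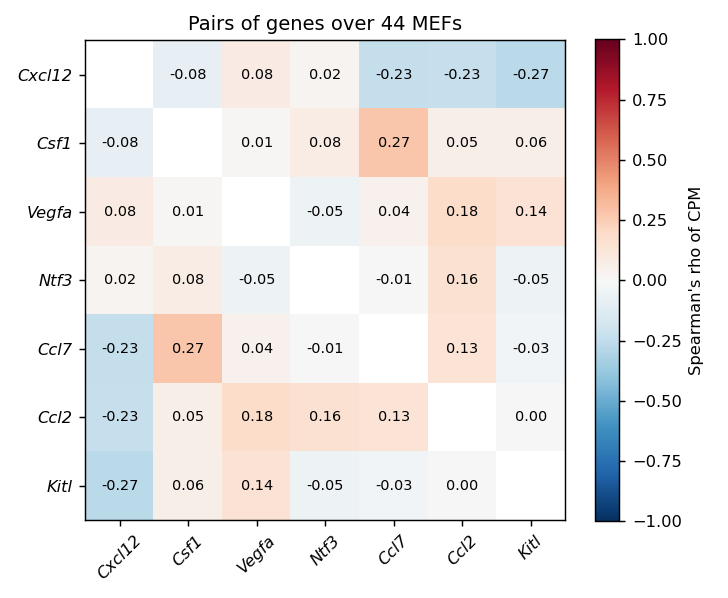
Spearman correlation of CPM over 44 MEFs for each pair of the 7 genes read in at least 11 MEFs. All 21 values lie between −0.27 and 0.27.

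For each gene read in at least 11 MEFs, the 3 closest among 8296 genes compared over the 44 MEFs all lay outside the set. As the highest of so many values, their correlations cannot be set against those of the pairs within the set. Closest to Cxcl12 were Lama5, a laminin chain of basement membranes, at a Spearman correlation of 0.62 and Fstl1, a secreted glycoprotein of mesenchymal cells, at 0.60, with 0.54 and 0.52 at 20000 reads per cell. Ap2a1 followed at 0.57, and at 0.16 at equal depth. Closest to Csf1 were Tuft1 at 0.59, Tmem9b at 0.53 and l7Rn6 at 0.53, which stood at 0.48, 0.50 and 0.02 at equal depth. Closest to Kitl was Gclm, a subunit of the enzyme that starts glutathione synthesis, at 0.53, then Sdr39u1 at 0.45 and Abhd11 at 0.44, with 0.54, 0.29 and 0.44 at equal depth. Ccl2 was closest to Mdm4 at 0.68, Me2 at 0.60 and Chchd6 at 0.57, with 0.19, 0.37 and 0.61 at equal depth. Ccl7 was closest to Gosr1 at 0.68, Tmem120a at 0.55 and Errfi1 at 0.54, with 0.40, 0.36 and 0.35 at equal depth. Vegfa was closest to Lta4h at 0.61, Fbxo28 at 0.58 and Pgs1 at 0.56, with 0.12, 0.47 and 0.12 at equal depth. Ntf3 was closest to Dusp14 at 0.57, Spnb2 at 0.54 and Mcfd2 at 0.51, with 0.48, 0.36 and 0.42 at equal depth. These are the highest among the 8296 values of each gene and carry no test.

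Receptors for these ligands were unevenly present in the MEFs themselves. Of 18 receptor genes in the table, 12 were measured. Of these, 8 were MEF-high and 3 ES-high, where the shares for all genes were 58.5% and 15.4%. Csf1r, at least 1.90-fold higher in MEFs by its bound, was in neither class. Among the 8, Cxcr4, Kdr, Il6ra, Flt1 and Ngfr had 0 to 18 ES cell reads and passed the read minimum through MEF reads alone, as did Csf1r. Kit, with 11 MEF reads, passed it through ES cell reads alone. Nrp1, a coreceptor of Vegfa, was read in 44 of 44 MEFs and 26 of 45 ES cells, at 546 CPM in MEFs and 24.5 CPM in ES cells (log2 ratio 4.48, row SD 1.12). The signalling Vegfa receptors were rarer: Flt1 was read in 12 MEFs and 3 ES cells, with 7 of 9 ES cell reads in ES cell 7, and Kdr in 4 MEFs and no ES cell, with 44% of its reads in MEF 92. Nrp2 stood at 25.7 CPM in MEFs and 60.7 CPM in ES cells (log2 ratio −1.24, row SD 4.04), which rested on single cells. Without ES cell 21, with 365 of the 529 ES cell reads, the log2 ratio was 0.38, and without MEF 57, with 58.2% of the MEF reads, it was −2.46. Il6st, the shared signalling chain for Il6, was read in 33 MEFs and 17 ES cells (135 and 22.9 CPM), where ES cell 25 held 107 of 200 ES cell reads and the ES cell level without it was 11.3 CPM. Il6ra was read in 4 MEFs and 1 ES cell, with 60% of its MEF reads in MEF 61.

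Cxcr7, the scavenging Cxcl12 receptor, was read in 16 MEFs and 6 ES cells, at 35.4 and 9.86 CPM, or 4.17 CPM in ES cells without ES cell 23, whereas Cxcr4 was read in 2 MEFs, with 41 of its 42 reads in MEF 89, and in no ES cell, so that its MEF-high call rested on that cell. Ngfr, which binds all neurotrophins, was read in 4 MEFs and 1 ES cell, with 545 of 549 MEF reads in MEF 83, without which its MEF level was 0.115 CPM against 2.06 CPM in ES cells. Kit showed the opposite direction to its ligand, at 0.31 CPM in 2 MEFs and 30.7 CPM in 7 ES cells (log2 ratio −6.62, row SD 1.56), or 18.3 CPM in ES cells without ES cell 14. Csf1r had 23 reads in 1 MEF, Ntrk3 17 reads in 1 MEF, and the CC chemokine receptors Ccr1, Ccr2, Ccr3 and Ccr10 had no read in either cell type. Reads of ligand and receptor stood in the same MEF in 8 cells for Vegfa and Flt1, where 27 and 12 of 44 MEFs held each gene. The count was 4 each for Vegfa and Kdr and for Il6 and Il6st. It was 1 each for Cxcl1 and Cxcr2, Il6 and Il6ra, Kitl and Kit, Csf1 and Csf1r, Ntf3 and Ntrk3, and Ntf3 and Ngfr. Nrp1 and Cxcl12 were read in all 44 MEFs. The counts of 27 for Vegfa and Nrp1, 16 for Cxcl12 and Cxcr7 and 2 for Cxcl12 and Cxcr4 therefore only repeat the MEFs with the partner gene.

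Most other chemokine genes were silent at this depth. Of 27 in the table, 19 had no read in either cell type, among them Cxcl2, Cxcl3 and Cxcl10. Of the 7 measured, 6 were MEF-high, against 58.5% of all genes, and 5 of these had at most 1 ES cell read, so that they passed the read minimum through MEF reads alone. Ccl25 was ES-high, at 1.62 CPM in MEFs and 124 CPM in ES cells, or 76.9 CPM in ES cells without ES cell 13. Cxcl14 was read in 21 MEFs and 7 ES cells, at 93.9 and 3.21 CPM, Ccl27a in 15 MEFs and 1 ES cell, and Ccl20 in 4 MEFs and no ES cell, at least 19.6-fold higher in MEFs. Without MEF 64 the Cxcl14 level in MEFs was 57.8 CPM, and MEF 61 held 78.1% of the Ccl20 reads. Of 25 other cytokine genes, 12 had no read in either type, including Tnf, Il1a, Il1b, Csf2 and Csf3, which act as upstream or parallel signals of inflammation. Of the 11 measured, 10 were MEF-high, against 58.5% of all genes, and Mif was ES-high, at 313 CPM in MEFs and 1248 CPM in ES cells. Among the 10, Tslp, Ctf1, Flt3l and Tnfsf11 had no ES cell read, and Il1rn and Il34 had 2 each. These too passed the read minimum through MEF reads alone. Tnfsf11, the osteoclast factor RANKL, was read in 4 MEFs and no ES cell, with 83.8% of its reads in MEF 81, the cell that also led for Ccl2 and Ccl7. Ctf1, a cytokine that signals through Il6st, was read in 6 MEFs and no ES cell, with 79.2% of its reads in MEF 89, and Il1rn, the interleukin 1 receptor antagonist, in 6 MEFs and 1 ES cell, with 46.4% of its MEF reads in MEF 77.

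Other growth and neurotrophic factors were more widely read. Of 22 measured, 19 were MEF-high, against 58.5% of all genes, none ES-high, and 3 neither, with a median log2 ratio of 2.76. Among the 19, Pgf, Angpt2, Fgf2, Fgf10, Pdgfb, Pdgfd, Ntf5 and Cntf had no ES cell read. These passed the read minimum through MEF reads alone. Bdnf, a neurotrophin related to Ntf3, was read in 38 MEFs and 18 ES cells, at 241 and 15.1 CPM. Hbegf, a ligand of the EGF receptor, stood at 289 CPM in MEFs and 27.1 CPM in ES cells, Igf1 at 59.8 and 2.06 CPM, and Ptn at 54.98 and 2.75 CPM. Single cells carried much of these levels. Without MEF 57 the Igf1 level in MEFs was 20.6 CPM and without MEF 63 that of Ptn was 17.1 CPM, while without ES cell 1 the Hbegf level in ES cells was 13.9 CPM and without ES cell 41 that of Igf1 was 0.712 CPM.

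Genes known as parts or targets of the NF-kappaB pathway were read along with them. Of 31 measured, 23 were MEF-high, against 58.5% of all genes, 3 ES-high (Irf1, Socs3 and Nfkbib) and 5 neither, with a median log2 ratio of 3.04 against 1.48 for all genes. Among the 23, Nfkbie, Tlr2 and Tlr3 had no ES cell read and passed the read minimum through MEF reads alone. Rela, the p65 subunit of NF-kappaB, was read in 36 MEFs and 4 ES cells, at 53.4 and 1.95 CPM. Ptgs2, which makes prostaglandins in inflammation, stood at 153 CPM in MEFs and 6.54 CPM in ES cells, Ier3 at 140 and 13.1 CPM, and Ikbkg at 65.03 and 5.16 CPM. Without the highest ES cell of each, ES cells 22 and 29, the ES cell levels of Rela and Ikbkg were 0.949 and 1.99 CPM. Nfkbia, the feedback inhibitor of NF-kappaB, passed 2-fold in neither direction, at 26.2 CPM in MEFs and 16.97 CPM in ES cells. The inhibitor and Irf1, Socs3 and Nfkbib were named after their values were seen.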

How the data were processed

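The authors deposited raw counts of reads per gene and well, per the file headers, and did not normalise them. The submitters' processing notes name Bowtie, and neither a version, a build nor an annotation is given in the sources used here. Counts include reads with alternative mappings, per the file headers, but all plate reads of the 9 measured genes were unique. Gene totals left out repeat and spike-in rows. All columns of wells were mapped to samples by plate position (0 unmapped).

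With 1 culture per cell type no test was run, so genes were called by size, at least 2-fold in pooled CPM, among genes with at least 20 reads over both types, and relative to the median of genes with at least 100 reads. Where a cell type had 0 reads, 3 reads over all its cells stood in and gave a bound. Equal-depth values thin each cell to 20000 gene reads. The genes and lists were chosen with earlier results of these data known. Named genes were all 10 genes, the 4 measured genes of each list with the largest log2 ratio after adding 10 CPM, receptors with at least 20 reads and the 3 genes closest to each gene read in at least 11 MEFs. Alternatives were other scalings, parts of the plate, equal depth, well and read minimums, an added 10 CPM, subtraction of control reads and leaving out the highest MEF or single ES cells. Coordinates are from the GRCm38 annotation and promoter windows from RefSeq. Python 3.11.15, numpy 2.4.6, pandas 2.3.3, scipy 1.17.1 and matplotlib 3.10.9 were used, and the code was tested on simulated data.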

Additional observations from a re-analysis of the deposited data

How the results depend on the processing

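All 9 measured genes kept their direction, higher in MEFs, in each of the 123 recomputed log2 ratios. Of the 111 for genes with an SD over plate rows, 90 moved by less than that SD and 21 by more, and Cxcl1, read in 2 plate rows, had no SD. From 7 to 9 of them were at least 2-fold up in MEFs, with 7 found with 10 CPM added and at 20000 reads per cell. The count at least 2-fold above the median gene, 8, was 5 with 10 CPM added, 5 over plate rows A to D, and 7 to 9 otherwise. The median log2 ratio, 3.83, was 8.39 under spike-in scaling and 2.12 with 10 CPM added. The median gene itself lay at 0.26 with median-of-ratios size factors and at 6.10 when scaled to spike-in reads. Of 60 recomputed shares of MEFs, 7 moved. All but that of Cxcl1 in plate columns 7 to 9 moved at 20000 reads per cell, where removing reads can only lower a share. The cause of the Cxcl1 change over plate columns was not tested. At 20000 reads per cell Cxcl12 was read in 38 MEFs, Vegfa in 11, Ntf3 in 13, Csf1 in 24, Ccl2 in 6 and Cxcl1 in 0. At full depth these were 44, 27, 22, 36, 12 and 2. No paired analysis was possible because MEFs and ES cells share no replicate numbers and no test was run.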

Other observations

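Of 19 measured genes of the response to low oxygen, a pathway known to induce Vegfa, 11 were MEF-high, 3 ES-high and 5 neither, close to the 58.5% MEF-high and 15.4% ES-high among all genes. Their median log2 ratio of 1.11 lay below the 1.48 of all genes. Egln1, an oxygen-sensing prolyl hydroxylase, stood at 120 CPM in MEFs and 5.62 CPM in ES cells. The collagen prolyl hydroxylase genes P4ha1 and P4ha2 stood at 136 and 77.4 CPM in MEFs, against 13.2 and 3.90 CPM in ES cells. Pdk1, which limits entry of pyruvate into mitochondria, went the other way, at 5.43 CPM in MEFs and 75.1 CPM in ES cells.

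Cytokine mRNAs are known to carry AU-rich elements that target them for decay or protect them. Of 8 measured genes for proteins that bind such mRNAs, 5 were MEF-high, 1 ES-high and 2 neither, where 58.5% of all genes were MEF-high and 15.4% ES-high. Zfp36, which promotes decay, was read in 28 MEFs and 9 ES cells, at 90.5 and 12.8 CPM, or 5.33 CPM in ES cells without ES cell 26, and its relative Zfp36l2 stood at 239 CPM in MEFs and 61.3 CPM in ES cells, or 34.8 CPM without ES cell 11. Elavl1, which stabilises such mRNAs, stood at 162 CPM in MEFs and 28.7 CPM in ES cells, and Rc3h1 at 48.5 and 7.91 CPM, or 3.94 CPM in ES cells without ES cell 42.

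Cxcr2, the receptor of Cxcl1 and Cxcl5, was distributed unlike the other receptors. It was read in 34 of 44 MEFs and 36 of 45 ES cells, yet with only 144 and 141 reads in all, at most 22 reads in a MEF and 10 in an ES cell, and none in the negative control wells. Pooled levels were 4.10 CPM in MEFs and 16.2 CPM in ES cells, lower in MEFs in 8 of 8 plate rows, and all 285 plate reads were unique.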
